A study of Homo sapiens with 42 samples.

Results

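HCC827, a lung adenocarcinoma cell line whose growth depends on an activated EGFR gene, was compared as drug tolerant persisters with its DMSO control. The comparison used 3 DTP (drug tolerant persister) libraries and 3 DMSO libraries, 6 of the 42 samples of the series, taken by the names of their columns, and treated the replicate number at the end of the name as a block. Exposure of the DTP cells to osimertinib, an inhibitor of EGFR, was at 500 nM and lasted 24 days. The DMSO cells spent 21 days free of drug and then 3 days in DMSO, the solvent. Another group, combo, had received 500 nM osimertinib for 21 days and 150 nM AZD5153, an inhibitor of BET proteins, for 3 days. Its 3 libraries entered the fit too, and so took part in the choice of tested regions, the scaling, the block and the estimate of the spread. The rest of the series held the same kinds of groups in PC9, H1975 and HCC2935, other EGFR mutant lung lines. All libraries came from a cultured line and not from tumours, and the labels name no clone and do not say whether the libraries of a group came from separate cultures, so that p-values measure the spread between libraries, which may be technical.

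ATAC-seq measures open chromatin. Its transposase cuts exposed DNA, so that many fragments come from active promoters and enhancers and few from packed chromatin. Promoters lie at the start of a gene. Enhancers can lie far from the gene they act on, so that the gene named for a region below is the one assigned to it by the authors' annotation, in most cases that of the nearest transcription start. EGFR signals through RAS and ERK to transcription factors such as AP-1, the dimers of FOS and JUN proteins, and persisters are the cells that survive an EGFR inhibitor without a known resistance mutation. Levels are given as CPM (counts scaled to a total of 1e+06 over the tested regions, with TMM factors), and differences as log2 changes of DTP against DMSO with their standard error (SE).

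The libraries numbered 3 stood apart from the others. Total counts over the 350366 regions of equal width were 2443177 to 3629743 in DMSO and 1892994 to 4242868 in DTP, the highest of each group being number 3. The share of counts at promoters within 1 kb of a start was 26.4% and 27.0% in DTP 3 and DMSO 3, and 18.9% to 20.6% in the other 4 libraries. Deviations from the group mean were correlated between DMSO and DTP libraries of the same number, at 0.388, 0.313 and 0.604 for numbers 1, 2 and 3, and those of numbers 1 and 2 were also correlated across numbers, at 0.375 and 0.221. Those of number 3 were correlated negatively with the other numbers, at -0.351 to -0.495. Promoters of the epithelial genes EPCAM, CDH1, KRT8, KRT18 and KRT19 and of NKX2-1, the lung lineage factor, were open in all 6 libraries, with summed levels from 5.73 CPM for EPCAM in DTP to 239 CPM for KRT8 in DMSO. Of the other lung markers read, NAPSA had no annotated region. The promoter of SFTPB was at 10.8 to 15.2 CPM in DMSO and 6.71 to 10.7 CPM in DTP. Of the 16 listed markers of other cell types 7 had annotated regions, 16 regions in all. PTPRC, CD3E and DCN, markers of blood cells and fibroblasts, had none, whereas the endothelial genes PECAM1 and CDH5 had 2 and 3, SPI1, a blood cell factor, had 1, and COL1A1, a collagen gene of fibroblasts, had promoter levels of 30.5 to 35.8 CPM in DMSO and 33.0 to 50.5 CPM in DTP.

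Persisters opened and closed chromatin at regions that, where annotated, lay mostly outside promoters. Of 82309 regions tested, 1776 were higher and 1415 lower in DTP (edgeR quasi-likelihood test, Benjamini-Hochberg adjusted p under 0.05), together 3.88% of those tested. The change went in the same direction in all 3 pairs at 98.6% of the called regions, against 37.5% of all tested regions. Levels of the 2 groups did not overlap at 93.8% of the higher and 92.7% of the lower regions, and this was so for 14.3% of all tested regions. Because the cells were measured in bulk, a region open in more cells cannot be told apart from one more open in each cell.

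These counts rested on the block and on single libraries. The spread between libraries, as the biological coefficient of variation, was 22.03% with the block and 45.05% without it, and without it 18 regions were called, all of them among the 3191. Leaving out DTP 3 gave 225 calls, DTP 1 1208, DTP 2 2110 and DMSO 2 4827. Without DMSO 3 the call counts turned to 931 higher and 1469 lower, and without all libraries numbered 3 there were 499 higher and 682 lower. The rises were larger in pair 3, with a median of 2.35 on the log2 scale against 1.33 in pair 1 and 1.26 in pair 2, while the medians of the falls were -1.37, -1.42 and -1.49 in pairs 1 to 3.

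**Figure D1:**
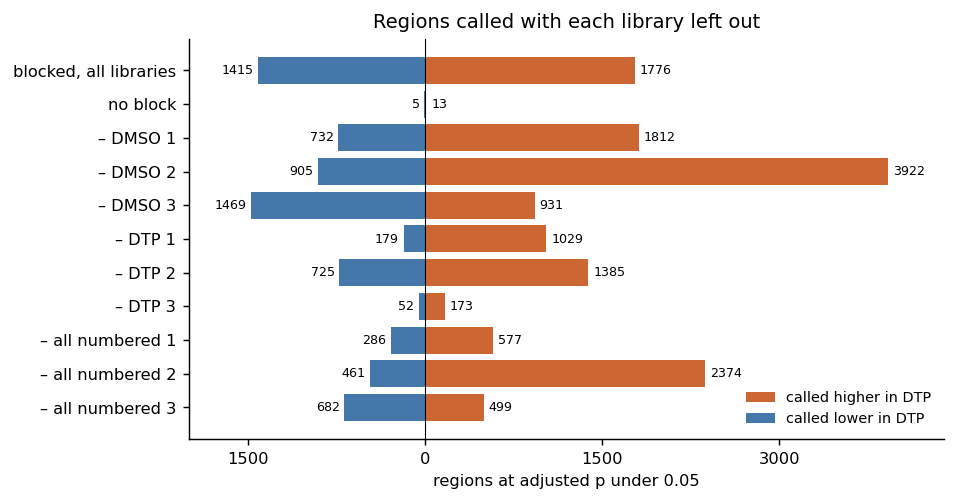
Number of regions called higher (right, orange) and lower (left, blue) in DTP against DMSO at an adjusted p under 0.05, with all libraries, without the replicate block and with 1 library or all libraries of 1 number left out. The calls ranged from 18 without the block to 4827 without DMSO 2, and lower calls outnumbered higher ones when DMSO 3 or all libraries numbered 3 were left out.

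Introns and intergenic DNA changed more often than promoters. In the annotated table, 295 of 7065 intronic regions rose and 338 fell, together 8.96%, and 7.93% of the 5500 distal intergenic regions were called. At promoters, within 3 kb of a start, 147 of 16334 regions rose and 280 fell, 2.61% in all. Outside the annotated table, of 51743 tested regions, 1095 rose and 493 fell. Regions that rose began from a low level, with a median of 3.11 CPM in DMSO and 13.0 CPM in DTP, and those that fell went from 17.6 to 5.54 CPM. In combo the same sets had medians of 9.33 and 5.42 CPM.

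Among called regions with a mean level above the median of those tested and 1 direction in all 3 pairs, the largest rises outside promoters included a region in intron 16 of 17 of LGR5, the R-spondin receptor that marks stem cells of the gut and hair follicle. It had 0.996, 2.54 and 1.26 CPM in DMSO 1 to 3 and 25.8, 26.0 and 43.4 CPM in DTP 1 to 3, a log2 change of 4.35 ± 0.411 (SE, edgeR adjusted p = 1.06e-05). All DTP libraries lay far above all DMSO libraries, which held 2 to 4 counts each at chr12:71581120-71581621. The combo libraries, at 7.67 to 17.4 CPM, lay between the groups.

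Near HOPX, a homeodomain protein of alveolar type I cells, a region at -16345 bp from the start (chr4:56698244-56698745) had 2.49, 1.91 and 1.69 CPM in DMSO and 14.3, 22.6 and 37.9 CPM in DTP. Its log2 change was 3.58 ± 0.429 (adjusted p = 9.14e-05), and the groups did not overlap. In intron 7 of 16 of CRIM1, a membrane protein that binds bone morphogenetic proteins, a region (chr2:36482671-36483172) went from 0.498, 4.45 and 1.26 to 20.8, 19.3 and 56.0 CPM. The change of 4.06 ± 0.499 on the log2 scale had an adjusted p of 0.000119, and the highest DMSO library was number 2. SLC47A1 encodes MATE1, an exporter of cationic drugs and metabolites. The region assigned to it, at -9957 bp in an intron of another transcript (chr17:19484927-19485428), had 0.422 to 2.99 CPM in DMSO and 21.5 to 37.9 CPM in DTP, a log2 change of 3.84 ± 0.447.

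PRELP, a small proteoglycan of the matrix, had a region at -20458 bp with levels that agreed closely among the DTP libraries, at 23.6, 23.5 and 22.8 CPM, against 3.49, 3.18 and 0 CPM in DMSO. Its log2 change was 3.54 ± 0.47 (adjusted p = 0.000201). The remaining rises of this kind were assigned to the noncoding RNA genes LINC01450 (5.18 ± 0.509) and LINC01101 (3.66 ± 0.467) and to TADA1, a subunit of a histone acetylating complex (3.96 ± 0.531), on the log2 scale. For all 8 of these regions the DTP libraries were above the DMSO libraries, and at 6 of them no DMSO library had a peak in the authors' lists.

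The largest falls outside promoters were led by a distal region assigned to GPC1, a glypican of the cell surface (chr2:240385421-240385922). It went from 35.4, 29.3 and 61.1 CPM in DMSO to 5.02, 4.19 and 2.57 CPM in DTP (log2 change -3.54 ± 0.377, adjusted p = 2.97e-05). Next was a region 27409 bp from the start of SERPINB1, an inhibitor of neutrophil proteases (chr6:2810089-2810590), with 32.9, 14.6 and 51.4 CPM in DMSO and 6.45, 1.68 and 4.82 CPM in DTP. The log2 change was -2.96 ± 0.354. Combo libraries were at or near the DTP level at both, with 2.09 to 2.97 CPM at the GPC1 region and 1.87 to 3.49 CPM at the SERPINB1 region.

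A region upstream of SRI, which encodes the calcium-binding protein sorcin, fell from 52.8, 45.8 and 65.8 CPM to 8.60, 7.55 and 11.6 CPM in DTP (-2.53 ± 0.32, adjusted p = 0.000133) and was lower again in combo, at 2.79, 2.80 and 0.371 CPM. ARHGAP29 encodes a GTPase-activating protein that turns off RhoA. Its region, at -47668 bp from the start, fell from 29.9, 31.8 and 38.4 CPM to 8.60, 7.55 and 6.11 CPM, a log2 change of -2.22 ± 0.317. CASC11 (-2.89 ± 0.275), OR1F1, an olfactory receptor gene (-2.79 ± 0.364), LINC01591 (-2.51 ± 0.342) and CHCHD6, a protein of the mitochondrial inner membrane (-2.24 ± 0.345), completed the 8. At all 8 regions every DMSO library had a peak.

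At promoters the changes were smaller. HNRNPUL1, a nuclear RNA-binding protein, had a region at the start of one of its annotated transcripts (chr19:41298218-41298719) with 3.49, 2.54 and 2.11 CPM in DMSO and 16.5, 18.5 and 18.7 CPM in DTP (log2 change 2.69 ± 0.402, adjusted p = 0.00055). DNAJC6, the auxilin that helps uncoat clathrin vesicles, had 0.498, 4.45 and 2.95 CPM in DMSO and 15.8, 10.1 and 22.5 CPM in DTP (2.69 ± 0.457). AEBP2, a cofactor of the repressive complex PRC2, rose by 2.93 ± 0.464 at a region at -727 bp. KIAA1217 (2.89 ± 0.421), DDX47, an RNA helicase (2.76 ± 0.516), and LINC01010 (2.60 ± 0.414) were the other named rises, and none of these 6 promoter regions had a peak in more than 1 of the DMSO libraries.

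CTNND1 encodes p120 catenin, which holds E-cadherin at the cell membrane. A region at -721 bp from its start (chr11:57799062-57799563) fell from 37.4, 46.4 and 62.8 CPM to 5.73, 6.71 and 19.0 CPM (log2 change -2.26 ± 0.312, adjusted p = 0.000291), and DTP 3 was the highest of the DTP libraries. HAVCR1, a membrane receptor of injured kidney epithelium, fell by 2.25 ± 0.387 at a region 2638 bp from its start, from 14.9, 22.3 and 23.6 to 1.43, 3.35 and 7.08 CPM. CCAT1, a noncoding RNA (-2.70 ± 0.421), MIR7162 (-2.27 ± 0.325) and the small nuclear RNA genes RNVU1-18 (-2.77 ± 0.378) and RNU4-2 (-2.36 ± 0.338) fell as well.

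All 28 regions named for their size kept their direction and an adjusted p under 0.05 when the libraries numbered 3 were left out, the weakest being DDX47 at 1.60 on the log2 scale (adjusted p = 0.0497). Without the block 5 of them passed, namely the regions of LINC01450, LGR5, SLC47A1, GPC1 and CASC11, with adjusted p from 0.045 to 0.0497.

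**Figure D2:**
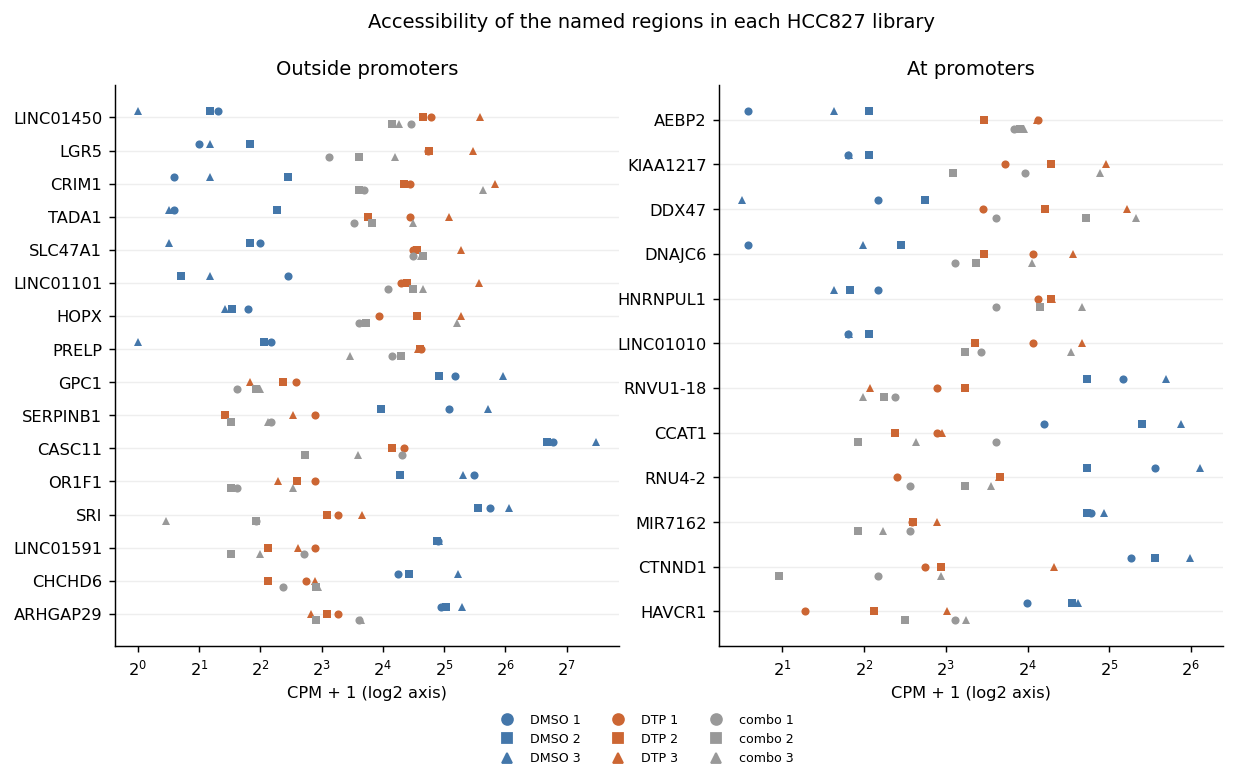
CPM plus 1, on a log2 axis, of the 28 named regions in DMSO (blue), DTP (orange) and combo (grey) libraries, with the replicate number given by the shape of the point. In each row the DMSO and DTP libraries do not overlap, and at SRI the combo libraries lie below the DTP libraries.

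Regions of small nuclear RNA genes were called lower at 11 of 22 symbols and higher at none. These genes encode the RNAs of the spliceosome, the U1, U2, U4, U5 and U6 RNAs and the U11, U12 and U4atac RNAs of the minor spliceosome, and most are read from short promoters by RNA polymerase II. The group was chosen after its values were seen, as all symbols that begin with RNU or RNVU, so that its count is a description. Of 46 tested regions assigned to 22 such symbols, 14 fell and 0 rose, against 3.02% of annotated regions called lower and 2.23% called higher in the same test. At an unadjusted p under 0.05, 21 were lower and 0 higher. DESeq2 called 8 lower and 0 higher, and limma voom called 18 lower and 0 higher. The median log2 change of the 46 regions was -0.616, beside -0.09 for all annotated regions. Of the 14 called regions 12 were at promoters, within 3 kb of a start, as were 36 of the 46 tested. The called regions of RNU4-2, RNU5B-1 and RNU11 lay 784, 589 and 225 bp from the start, and those of RNU4-1 and RNU5A-1 overlapped theirs. Nearer regions of RNU4-2, at -41 bp (-0.21 ± 0.271), and RNU11, at -20 bp (0.14 ± 0.362), were not called.

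RNU5B-1, a U5 gene (chr15:65305266-65305767), had 20.9, 10.2 and 28.7 CPM in DMSO and 3.58, 3.35 and 1.29 CPM in DTP (log2 change -3.06 ± 0.466, edgeR adjusted p = 0.000657). RNU11, of the minor spliceosome (chr1:28648825-28649326), had 40.3, 24.8 and 65.3 CPM in DMSO and 12.2, 9.23 and 10.6 CPM in DTP (-2.03 ± 0.302). RNU4-2, a U4 gene (chr12:120290618-120291119), had 46.3, 25.4 and 68.3 CPM in DMSO and 4.30, 11.7 and 11.6 CPM in DTP. In each of these the highest DTP library was below the lowest DMSO library. RNU12, also of the minor spliceosome (chr22:42615302-42615803), changed least among the 14, from 52.3, 42.6 and 75.0 CPM to 32.2, 23.5 and 25.1 CPM (-1.08 ± 0.245).

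The other calls were at RNU5E-1 (-1.97 ± 0.288), RNU4-1 (-1.51 ± 0.288), RNU5A-1 (-1.34 ± 0.305), RNU4ATAC (-2.16 ± 0.42), RNU6-1 (-1.20 ± 0.326), RNVU1-19 (-1.64 ± 0.406) and 4 regions assigned to RNVU1-18 (-1.21 to -3.09). At all 14 the groups did not overlap, as at 92.7% of all regions called lower and 14.3% of all tested regions. Without the libraries numbered 1, 2 or 3 the count of falls was 8, 10 or 7, and without the block it was 0. Many of these genes have near-identical copies and pseudogenes, above all those of U1, among which reads could be split, and the values of RNVU1-18 and RNVU1-19 are uncertain for that reason. SNAPC5, a subunit of the complex that binds small nuclear RNA promoters, was lower at its promoter (chr15:66497693-66498194), with 21.4, 19.7 and 31.6 CPM in DMSO and 14.3, 6.71 and 12.9 CPM in DTP (-1.11 ± 0.302, adjusted p = 0.0383, and 0.222 without the libraries numbered 3). A link between this region and the falls above was not tested.

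**Figure D3:**
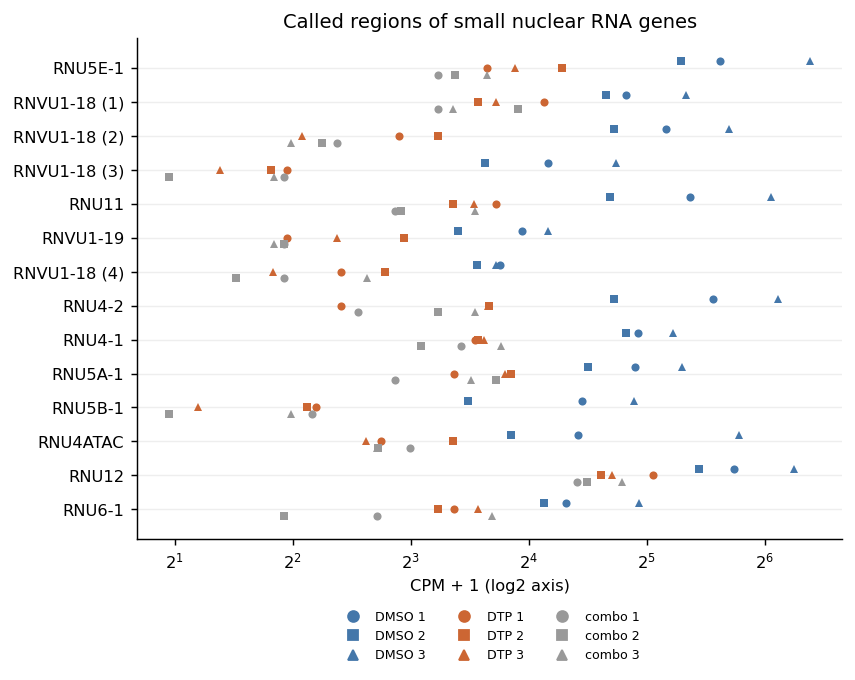
CPM plus 1, on a log2 axis, of the 14 called regions of small nuclear RNA genes in each HCC827 library (colours and shapes for group and replicate number). DMSO libraries lie to the right of the DTP and combo libraries at RNU5B-1, RNU11 and RNU4-2, and RNU12 has the smallest distance between DMSO and DTP.

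In the other lines, at the 10 of these 14 regions that were matched across all 4 lines, the median log2 change was -1.80 in HCC827, -1.39 in HCC2935, -0.997 in H1975 and -0.239 in PC9. These 10 were chosen on their fall in HCC827, so that its larger change is partly built in. Over all 34 matched regions of these genes the medians were -0.383 in HCC827, -0.257 in HCC2935, -0.447 in H1975 and -0.158 in PC9. RNU5B-1 changed by -3.16 in HCC827, -1.83 in HCC2935, -1.68 in H1975 and -0.82 in PC9 in the joint fit of the lines.

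The letters of short motifs were read in the promoters over called regions. RefSeq promoter windows on GRCh38.p14, from 250 bases before to 50 bases after a start, overlapped a tested promoter region at 8008 windows. Over regions that fell, the E-box letters (12.8% against 10.5% of tested windows) and the AP-1 letters were above their tested share. All other motifs read were below theirs. The AP-1 letters TGANTCA, which read the same on both strands, were in 13 of 39 windows over regions that fell (33.3%), in 3 of 26 over regions that rose (11.5%), in 4.86% of all 8008 windows and in 7.71% of the 35116 windows in the table. Without the libraries numbered 3 they were in 4 of 13 windows over falls and 1 of 24 over rises. Windows with these letters had a median GC content of 59.7% and all tested windows 66.3%, and the windows over falls 62.3%, and the part of base composition in these shares was not tested. A match is only a match of letters and does not show that the factor was bound.

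LAMA3, a chain of the laminin of the basement membrane under epithelium, had the largest fall among the windows with these letters. Its promoter region (chr18:23872543-23873044) went from 40.8, 26.7 and 63.7 CPM in DMSO to 5.73, 8.39 and 19.9 CPM in DTP (log2 change -1.97 ± 0.292, adjusted p = 0.000506, and 0.000972 without the libraries numbered 3). The window is shown whole because it held 2 AP-1 matches, the first beginning at -125 and the next at -69 from the start, and 1 match of GGGCGG, the SP/KLF letters, on the other strand. Capitals mark the matches.
LAMA3, chr18:23872770-23873069, plus strand: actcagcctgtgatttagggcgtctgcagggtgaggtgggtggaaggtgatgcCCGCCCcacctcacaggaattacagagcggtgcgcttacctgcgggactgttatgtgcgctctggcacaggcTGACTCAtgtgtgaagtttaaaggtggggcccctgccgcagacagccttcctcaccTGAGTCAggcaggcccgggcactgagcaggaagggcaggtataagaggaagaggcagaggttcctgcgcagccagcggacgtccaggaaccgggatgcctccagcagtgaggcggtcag

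The stretches around every other AP-1 match in the windows over falls are shown to compare what flanks them, with the match in capitals and up to 20 bases on each side.
DCLK1, chr13:35855865-35855911, minus strand: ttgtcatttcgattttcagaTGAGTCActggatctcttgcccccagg
DCLK1, chr13:35855826-35855872, minus strand: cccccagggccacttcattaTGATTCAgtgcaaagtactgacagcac
CAPN8, chr1:223665769-223665815, minus strand: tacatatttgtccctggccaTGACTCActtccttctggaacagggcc
IKBKG, chrX:154541220-154541266, plus strand: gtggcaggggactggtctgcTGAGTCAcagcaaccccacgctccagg
IKBKG, chrX:154542070-154542116, plus strand: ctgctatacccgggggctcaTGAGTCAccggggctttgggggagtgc
LOC389602, chr7:155962454-155962500, plus strand: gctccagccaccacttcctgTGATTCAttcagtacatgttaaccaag
PARPBP, chr12:102120313-102120359, plus strand: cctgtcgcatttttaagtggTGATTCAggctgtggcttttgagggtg
PTAFR, chr1:28193881-28193927, minus strand: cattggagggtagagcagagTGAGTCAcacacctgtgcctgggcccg
CSF1R, chr5:150113373-150113419, minus strand: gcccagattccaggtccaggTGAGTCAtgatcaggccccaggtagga
CD68, chr17:7579518-7579564, plus strand: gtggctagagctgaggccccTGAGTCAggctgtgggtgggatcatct
ADAP1, chr7:945767-945809, minus strand: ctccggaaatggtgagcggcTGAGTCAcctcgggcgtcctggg
SNAPC5, chr15:66497928-66497974, minus strand: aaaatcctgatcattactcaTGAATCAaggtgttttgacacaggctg
LINC00513, chr7:130913264-130913310, plus strand: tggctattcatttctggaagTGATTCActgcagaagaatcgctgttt
LINC00513, chr7:130913398-130913444, plus strand: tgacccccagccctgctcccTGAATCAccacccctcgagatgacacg
Both matches of IKBKG, the first of DCLK1 and those of PTAFR, CSF1R, CD68 and ADAP1 spell TGAGTCA, and that of CAPN8 spells TGACTCA. The other match of DCLK1, those of LOC389602 and PARPBP and the first of LINC00513 spell TGATTCA, and SNAPC5 and the other match of LINC00513 spell TGAATCA. DCLK1, a kinase that marks tuft cells, had log2 change -1.87 ± 0.456, and CAPN8, a calpain protease of the stomach, -1.79 ± 0.442. IKBKG, the regulatory subunit of the kinase that activates NF-kappaB, fell by 1.44 ± 0.279, and since this gene has a near-identical pseudogene its value is uncertain. CD68, a lysosomal protein best known from macrophages, went from 83.2, 58.5 and 121 CPM to 40.8, 40.3 and 42.8 CPM (-1.07 ± 0.241, adjusted p = 0.0122). CSF1R, a receptor of macrophages, went from 26.4, 27.3 and 36.7 CPM to 13.6, 11.7 and 16.4 CPM (-1.11 ± 0.275). Of the regions of these genes, the IKBKG region just given was the one under an adjusted p of 0.05 without the libraries numbered 3, at 0.00833.

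Windows over rises held the TEAD letters GGAATG, counted on both strands, at 7 of 26 (26.9%), against 3 of 39 over falls (7.69%) and 10.4% of all tested windows. Without the libraries numbered 3 they were in 4 of 24 windows over rises. Besides AP-1, letters of FOXA (3.85% against 1.99% of tested windows), HNF1 (7.69% against 3.1%) and GATA (7.69% against 3.65%) were also above their tested share over rises. Each of these rested on 1 or 2 windows. Those of ETS (7.69% against 19.7%), E-box (3.85% against 10.5%), SP/KLF (61.5% against 75.6%) and NRF1 (3.85% against 5.54%) were below it. The median GC content of the windows over rises was 57.7%, against 66.3% of all tested windows, and its part in these shares was not tested. TUBA1A, an alpha tubulin, was chosen after its values were seen and rose from 11.5, 12.7 and 11.8 CPM to 47.3, 43.6 and 51.5 CPM (log2 change 1.99 ± 0.254, adjusted p = 0.000148, and 0.0012 without the libraries numbered 3). The replicates of each group were close, and combo was at 40.5 to 61.2 CPM. Its window held none of the 9 motifs read and is shown as a rise at a promoter for comparison with LAMA3.
TUBA1A, chr12:49189031-49189330, minus strand: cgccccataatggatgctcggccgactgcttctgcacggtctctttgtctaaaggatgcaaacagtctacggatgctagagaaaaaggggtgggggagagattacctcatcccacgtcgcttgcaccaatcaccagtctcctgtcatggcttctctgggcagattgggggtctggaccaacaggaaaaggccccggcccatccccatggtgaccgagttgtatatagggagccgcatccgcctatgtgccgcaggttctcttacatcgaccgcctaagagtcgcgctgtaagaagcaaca

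Gene lists drawn from knowledge of EGFR inhibition, with earlier results of these data known, were read next, each region counted under the gene assigned to it. Epithelial genes (keratins, claudins, adhesion genes and their regulators) had 9 of 84 regions lower (10.7%) and 1 higher (1.19%), against 3.02% and 2.23% of all annotated regions, and a median log2 change of -0.471 beside -0.09. KRT7, a keratin of simple epithelium, had 3 of these, KRT8 had 2, and KRT19, EPCAM, CLDN4 and ELF3 had 1 each. At 1 promoter region of KRT7 (chr12:52235901-52236402) the level was 13.0, 12.1 and 21.5 CPM in DMSO and 0.717, 1.68 and 8.04 CPM in DTP (-2.11 ± 0.418, adjusted p = 0.00497). The KRT19 region 1 to 2 kb from its start had 32.9, 34.3 and 41.7 CPM in DMSO and 17.2, 12.6 and 16.1 CPM in DTP (-1.25 ± 0.266). The exception was a region at -24356 bp from GRHL2, an epithelial transcription factor, which was higher by 1.87 ± 0.455. Of the epithelial falls, 3 were called without the libraries numbered 3, 1 without those numbered 1 and 1 without those numbered 2, and DESeq2 called 1 and limma voom 15 lower.

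Matrix genes and integrins, which anchor epithelium, had 8 of 98 regions lower (8.16%) and 3 higher (3.06%), with a median of -0.399, against 3.02%, 2.23% and -0.09 over all annotated regions. Beside the LAMA3 promoter, regions of LAMB3, ITGA2, ITGA3, ITGA6 and ITGB6 fell. ITGA2, the collagen-binding integrin chain, fell at 2 intronic regions, from 17.9, 10.2 and 14.8 to 5.73, 1.68 and 2.57 CPM at chr5:53036017-53036518 (-2.16 ± 0.406). LAMB1, a laminin chain of other basement membranes, fell at its promoter (-1.11 ± 0.306) and rose in its intron 12 of 32, from 7.47, 3.82 and 4.22 to 22.9, 16.8 and 27.0 CPM (2.11 ± 0.349, adjusted p = 0.00123). COL5A1, a fibrillar collagen, rose at 2 regions (2.20 ± 0.418 and 1.45 ± 0.345). Without the libraries numbered 1, 2 or 3 there were 2, 3 or 3 falls and 1, 2 or 2 rises, and DESeq2 called 3 falls and 2 rises.

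The mesenchymal and EMT list had 1 of 16 regions called (6.25%, beside 5.24% of all annotated regions). It was a distal region of CDH2, N-cadherin, up from 3.49, 5.09 and 6.32 to 18.6, 9.23 and 17.4 CPM (1.61 ± 0.393, adjusted p = 0.0205). The WNT and R-spondin list had 3 of 41 regions higher (7.32%) and 0 lower, beside 2.23% and 3.02% of all annotated regions. These were the LGR5 region, an intronic region of LGR6, its paralogue (1.24 ± 0.332), and one assigned to RNF43, the ubiquitin ligase that removes WNT receptors (1.41 ± 0.347). The RNF43 region lay at -35135 bp from the start, in an intron of another gene, and went from 3.99, 8.90 and 5.48 to 12.9, 17.6 and 17.0 CPM. At an unadjusted p under 0.05, 5 regions of the list were lower, and DESeq2 called 0 and limma voom 0 lower. DESeq2 called 1 of the rises and limma voom 3. Without the libraries numbered 3 the rise of LGR5 was the 1 call left, and without those numbered 1 or 2 there were 1 or 2 rises.

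Hippo pathway genes and YAP/TEAD targets, a program of growth control by cell contact, had 5 of 183 regions higher (2.73%) and 6 lower (3.28%), beside 2.23% and 3.02% of all annotated regions. The balance moved with the libraries, at 3 higher and 0 lower without those numbered 1, 7 and 1 without those numbered 2 and 2 and 5 without those numbered 3. CCN1, a matrix protein induced by YAP, rose at 2 distal regions, one from 4.98, 3.82 and 2.11 to 20.8, 15.9 and 20.3 CPM (chr1:85622987-85623488, 2.42 ± 0.371, adjusted p = 0.000706). WWTR1, the coactivator TAZ, fell at 2 intronic regions (-1.41 ± 0.343 and -1.08 ± 0.281). ASAP1 and CRIM1 had regions in both directions.

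Among AP-1 genes, JUN had a region higher (1.64 ± 0.385) and a region lower (-1.56 ± 0.369), and ATF3, a stress factor, had an intronic region higher, from 14.4, 12.1 and 16.4 to 33.0, 28.5 and 33.8 CPM (1.14 ± 0.291, adjusted p = 0.0265). The lower JUN region rested on DMSO 3, at 53.5 CPM against 12.5 and 13.4 CPM in DMSO 1 and 2, and had an adjusted p of 0.427 without the libraries numbered 3. ERK feedback inhibitors and targets had 3 of 60 regions lower, 2 of DUSP5, a nuclear ERK phosphatase (-1.32 ± 0.313 and -1.09 ± 0.301), and 1 of PHLDA1 (-1.23 ± 0.309). That was 5.0% lower, with 0 higher, beside 3.02% and 2.23% of all annotated regions. At an unadjusted p under 0.05, 2 were higher, and DESeq2 and limma voom called 0 and 0 higher. The falls were 0 with DESeq2, 7 with limma voom, 0 without the libraries numbered 1, 0 without those numbered 2 and 2 without those numbered 3.

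EGFR itself, which HCC827 cells carry in many copies, had 359 tested regions, of which 6 rose and 4 fell, beside 2.23% and 3.02% of all annotated regions. A region 1258 bp from the start of one of its annotated transcripts (chr7:55110981-55111482) went from 37.4, 41.3 and 24.9 to 61.6, 82.2 and 214 CPM (1.59 ± 0.315, adjusted p = 0.00504, and 0.0858 without the libraries numbered 3). DTP 3 was far above the other DTP libraries there. The region over another annotated start (chr7:55018699-55019200) was not called, at 311, 358 and 336 CPM in DMSO and 333, 267 and 356 CPM in DTP (-0.08 ± 0.173). A distal region at -33206 bp fell from 304, 322 and 270 to 142, 118 and 212 CPM (-1.0 ± 0.225, adjusted p = 0.0121, and 0.00208 without number 3). The EGFR list had 0 rises and 3 falls without the libraries numbered 3. With loess offsets it had 2 rises and 6 falls, and with the other scalings 6 and 3.

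Among bypass receptors, FGFR4 fell at its promoter from 34.4, 44.5 and 57.8 to 16.5, 18.5 and 19.9 CPM (-1.32 ± 0.277, adjusted p = 0.00763), and ROR1 (0.89 ± 0.222) and TEK (2.21 ± 0.419) had an intronic region higher. None of these 3 regions passed without the libraries numbered 3 (adjusted p = 0.0736, 0.2 and 0.073). In the BCL2 family, an intronic region of the gene for BCL-XL, BCL2L1, fell from 24.4, 24.2 and 25.3 to 4.30, 3.35 and 12.9 CPM (-1.88 ± 0.373, adjusted p = 0.00497), and a region near BOK rose (1.86 ± 0.354). Both kept an adjusted p under 0.05 without the libraries numbered 3. In the lung list a region assigned to MUC5B, an airway mucin, was lower (-2.0 ± 0.402). Regions assigned to HOPX and SCGB1A1, the club cell protein, were higher, the latter 33199 bp from its start in an intron of another gene (2.39 ± 0.49). Of these the HOPX region passed without the libraries numbered 3, and those of SCGB1A1 and MUC5B did not (adjusted p = 0.11 and 0.157).

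CDK inhibitors and D cyclins had 1 of 24 regions lower (4.17%) and 0 higher, beside 3.02% and 2.23% of all annotated regions. The fall, in CDK6 (-1.05 ± 0.299, adjusted p = 0.0483), was absent under each of the 3 other scalings, which each called 1 rise in the list. The SOX and KLF list had 3 of 42 regions lower (7.14%), at KLF2, KLF11 and SOX17, and 0 higher. Of the latter list 0 falls were called without the libraries numbered 1 or 3 and with DESeq2, and 1 or 2 with the other scalings. The markers of other cell types had 1 fall in 16 regions (6.25%, beside 3.02% of all annotated regions), a distal region of CDH5 whose groups overlapped. No region was called among gut and liver lineage factors (0 of 22), E2F and cell cycle genes (0 of 34), BET proteins and elongation factors (0 of 13) and interferon and antigen presentation genes (0 of 19), beside 5.24% of all annotated regions. At an unadjusted p under 0.05 these lists held 1 higher and 4 lower, 0 higher and 1 lower, 0 higher and 0 lower and 0 higher and 2 lower regions, and DESeq2 called 0 and limma voom 0 in the 4 lists together. Without the block the WNT list had 1 call and no other list had any.

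**Figure D4:**
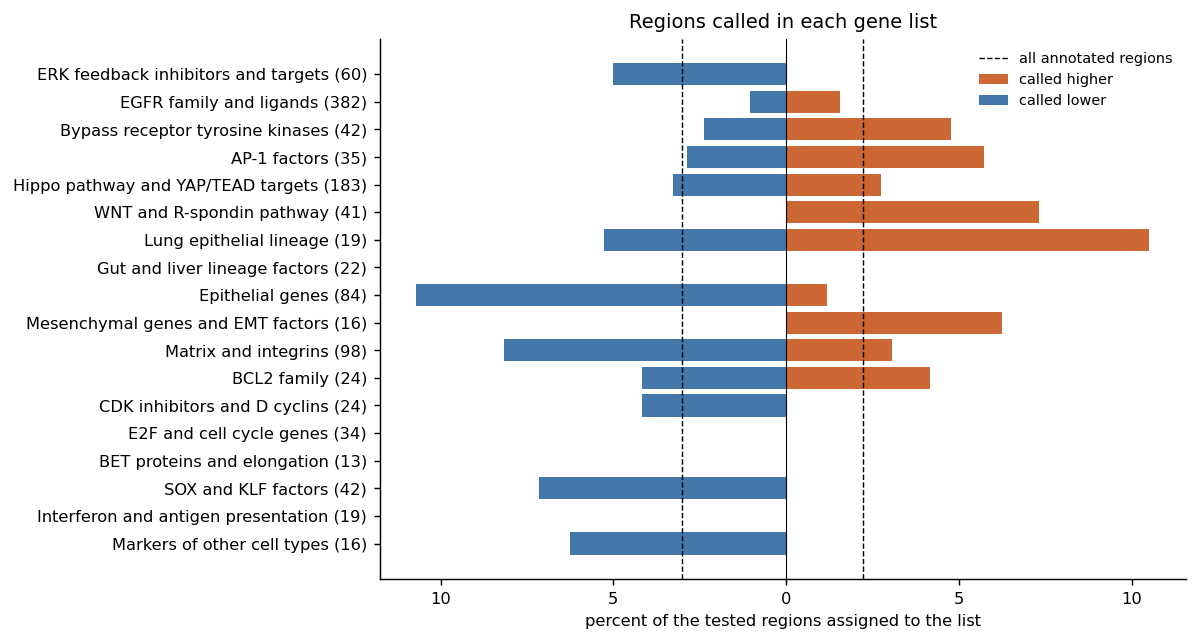
Share of the tested regions of each gene list called higher (right, orange) and lower (left, blue) in DTP, in percent, with the number of tested regions in brackets and dashed lines at the shares of all annotated regions. Epithelial genes had the highest share called lower, 10.7%, and the lung list of 19 regions the highest share called higher, 10.5%.

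Several genes had more than 1 changed region. TMEM170B had 7 rises among 182 tested regions, spread over 96.0 kb of chromosome 6, beside 2.23% higher among all annotated regions, and 3 of the 7 were called without the libraries numbered 3. The smallest rise was at its own promoter, from 122, 188 and 159 to 275, 272 and 239 CPM (0.77 ± 0.183). The largest, 71642 bp from the start, went from 22.4, 20.4 and 8.85 to 56.6, 62.9 and 277 CPM (2.74 ± 0.438). Of ANO2, a calcium-activated chloride channel, all 4 tested regions rose (1.33 to 2.05), and 3 of them without the libraries numbered 3. PDE4B, which breaks down cyclic AMP, had 3 of 4 regions higher (1.98 to 2.83), 2 of them called without the libraries numbered 3, and DNAJC6 had 3 of 6 regions higher, all 3 called without them. The 3 regions of BTNL10 rose (1.97 to 3.30), and 0 of them were called without the libraries numbered 3.

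Of the genes with 4 or more falls, CASC11, ST3GAL1, MIR4470 and GASAL1 lie on chromosome 8, RNVU1-18 on chromosome 1 and EGFR on chromosome 7. On chromosome 8, 1.53% of tested regions fell, beside 1.72% of all tested regions. Median log2 changes of the 10 Mb stretches that hold CASC11, ST3GAL1, MIR4470 and GASAL1 were -0.279, -0.206, -0.151 and -0.282, beside -0.123 over all tested regions. The part of these shifts in the falls was not tested. CASC11, a noncoding gene next to MYC, had 6 of 16 regions lower (-1.50 to -2.89), all within 75.5 kb, beside 3.02% of all annotated regions. The strongest, in an exon 46982 bp from its start (chr8:127668734-127669235), went from 109, 101 and 177 to 19.3, 16.8 and 16.7 CPM. The groups were far apart, and 2 of the 6 were called without the libraries numbered 3. ST3GAL1, a sialyltransferase, had 4 of 20 regions lower, 3 of them at its promoter. At its start the level was 57.8, 59.8 and 85.6 CPM in DMSO and 35.8, 24.3 and 22.8 CPM in DTP (-1.33 ± 0.257, adjusted p = 0.00396).

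Changes in HCC827 had counterparts in the other lines. Of the 3191 called regions, 2031 were matched by position to regions of all 4 lines. At the 1097 that rose, the median log2 change was 1.52 in H1975, 0.965 in HCC2935 and 0.608 in PC9, and 87.5%, 85.7% and 75.7% of them were above 0 there, against 53.4%, 50.2% and 50.9% of all matched regions. At the 934 that fell, the medians were -1.17, -0.646 and -0.583, with 91.3%, 81.3% and 83.3% below 0. The lines share no libraries.

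**Figure D5:**
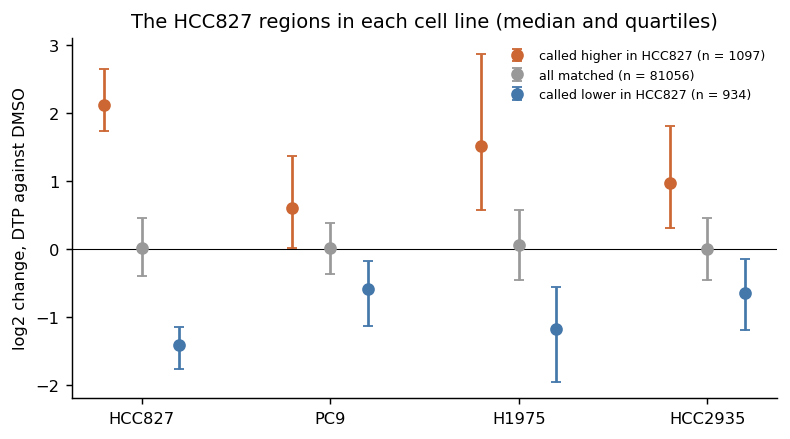
Median (point) and quartiles (bars) of the log2 change of DTP against DMSO in each line, at regions called higher (orange) and lower (blue) in HCC827 and at all 81056 matched regions (grey). Medians of the higher regions lie above 0 and those of the lower regions below 0 in all 4 lines, and the grey medians lie near 0.

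The difference between HCC827 and the mean of the other lines was tested in a joint fit of 81056 matched regions, with a block for each replicate number of each line. It called 5985 regions, 7.38% of those tested, 4306 with a higher and 1679 with a lower change in HCC827. Of the matched regions called in the HCC827 fit, 397 of 1097 rises and 258 of 934 falls were called in the same direction, and 269 and 147 with a weight for each line. These counts are a description, since the regions were chosen on the same HCC827 libraries. The lines differed in spread, with a coefficient of variation of 22.7% in HCC827, 9.98% in HCC2935, 2.29% in PC9 and 2.13% in H1975, so that a spread shared by the lines understates that of HCC827. With a weight for each line the calls fell to 3028, and without DMSO 3 or DTP 3 to 1907 or 1994.

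PDZK1IP1, a small membrane protein of epithelial tumours, moved in opposite directions. Its promoter region (chr1:47190056-47190557) fell in HCC827 from 55.8, 70.0 and 131 to 22.9, 15.1 and 32.5 CPM, while in the other lines it rose, from 2.89 to 3.97 CPM in DMSO to 14.7 to 17.8 CPM in DTP in PC9, from 0 to 0.548 to 2.49 to 4.17 CPM in H1975 and from 3.87 to 5.06 to 8.92 to 15.3 CPM in HCC2935. The difference of -3.94 ± 0.274 on the log2 scale had an adjusted p of 7.8e-13, and 5.58e-15 with a weight for each line. Its promoter window is shown because the same sequence went opposite ways, and it held none of the 9 motifs read.
PDZK1IP1, chr1:47189987-47190286, minus strand: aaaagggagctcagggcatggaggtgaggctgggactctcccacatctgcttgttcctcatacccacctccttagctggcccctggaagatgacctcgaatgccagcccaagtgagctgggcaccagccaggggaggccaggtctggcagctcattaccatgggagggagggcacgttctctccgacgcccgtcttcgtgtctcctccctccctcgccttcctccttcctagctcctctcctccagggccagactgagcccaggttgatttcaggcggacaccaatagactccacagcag

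Regions with the largest differences were sought only among matched regions also called in the HCC827 fit, and so were chosen on the same HCC827 libraries. Those with the largest positive differences were one 46649 bp from BIN1 (4.14 ± 0.557) and one 34634 bp from EDN1 (4.14 ± 0.565), which encodes the vasoconstrictor endothelin 1. Next was one in NEBL, an actin-binding protein (4.02 ± 0.539). The BIN1 region had 1.99, 1.27 and 1.69 CPM in DMSO and 12.9, 10.1 and 9.01 CPM in DTP in HCC827, and log2 changes of -0.49, -1.47 and -2.37 in PC9, H1975 and HCC2935. Besides PDZK1IP1, the largest negative differences were at intergenic regions whose nearest coding genes were NR4A2, 508092 bp away (-3.31 ± 0.596), and ABCA1, 139612 bp away (-3.26 ± 0.468). The latter went from 17.9, 17.8 and 22.8 to 2.15, 1.68 and 1.93 CPM in HCC827 and changed by 0.01, 0.07 and -0.14 on the log2 scale in PC9, H1975 and HCC2935. Of the regions named for size, the LGR5 region did not pass this test (difference 0.37 ± 0.716, adjusted p = 0.826), and the HOPX region did (2.85 ± 0.52, adjusted p = 0.000326).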

How the data were processed

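ATAC-seq was read from 42 samples of 4 lines, 6 of them the HCC827 DTP and DMSO libraries described here. The authors deposited raw counts per region of a fixed width, a table that annotates part of the regions with genes, and peak lists with −log10 q-values. The submitters' processing notes name BWA 0.7.17, SAMtools 1.9, deepTools 3.4, MACS2 2.2.6, featureCounts 2.0.0, ChIPseeker 1.29.1 and hg38. The lowest −log10 q of the deposited lists differed between libraries, from 1.34 to 2.56, so peaks served only as a description. The extract protocol in the labels describes an H3K27ac ChIP-seq, whereas titles and design name ATAC-seq, and the counts were read as ATAC-seq.

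Counts of the 9 HCC827 libraries were fitted with edgeR 4.0.16 (quasi-likelihood, TMM, filterByExpr by group) with group and replicate number as terms, the threshold being 0.05 after Benjamini-Hochberg adjustment. The labels say nothing of what a number marks, and the block was used because same-numbered DMSO and DTP libraries deviated together, at correlations of 0.313 to 0.604. DMSO 1 with DTP 2 was at 0.375 and DMSO 2 with DTP 1 at 0.221. These values set number 3 apart but cannot decide whether 1 pairs with 1 and 2 with 2. Deviations within a group of 3 also sum to 0, so that they are not independent. CPM intervals were not computed, and counting error adds to the spread where counts are low. Regions of the 4 lines were matched by a reciprocal overlap of 50% or more for the joint fit. Regions were named from annotated regions on chromosomes 1 to 22 and X that were called and moved the same way in all 3 pairs. Their mean log2 CPM over the 9 libraries, combo included, had to be above the median. The 8 largest rises and falls outside promoters and the 6 at promoters were taken, 1 per gene and class. Also named were the 6 genes with most regions called in each direction and the called region with the lowest p per list and direction. The 3 largest and 3 smallest differences from the other lines were named among regions also called in HCC827. None of the 12 promoter regions named for size overlapped a RefSeq window of its gene, so sequences of other called promoters were shown, chosen after their values were seen, as were the small nuclear RNA genes and other list members. Members, lists and motifs were chosen with earlier results of these data known. Sequences are RefSeq GRCh38.p14 windows. Alternatives were DESeq2, limma voom, other scalings and filters, no block, and libraries left out.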

Additional observations from a re-analysis of the deposited data

Results flagged for a closer look

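The change of DTP against DMSO differed between HCC827 and the mean of PC9, H1975 and HCC2935 at 6 named regions, by the joint edgeR test of that difference. These regions were taken from those also called in the HCC827 fit. On the log2 scale the difference was 4.14 at the region near EDN1 (adjusted p = 5.1e-06), 4.14 at the one near BIN1 (adjusted p = 3.94e-06) and 4.02 at the one in NEBL (adjusted p = 3.71e-06). It was -3.94 at the PDZK1IP1 promoter (adjusted p = 7.8e-13), -3.31 at the region nearest NR4A2 (adjusted p = 0.000271) and -3.26 at the one nearest ABCA1 (adjusted p = 1.07e-05). With a weight for each line the adjusted p was 0.000598, 7.65e-05, 0.00241, 5.58e-15, 0.0119 and 0.000547, in that order. The EDN1 region rested on few counts, at 0.498 to 1.26 CPM in DMSO and 2.15, 2.52 and 12.2 CPM in DTP.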

How the results depend on the processing

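The 3191 called regions (1776 higher, 1415 lower) became 18 (13 and 5) without the replicate block, 1075 (770 and 305) with DESeq2, 142 (40 and 102) at a mean count of at least 50, 1629 (759 and 870) with annotated regions only and 271 (206 and 65) when a log2 change of at least 1 was tested. Fewer regions were tested under the count minimum and with annotated regions only, and the cause of the other moves was not tested. With no filter 2741 were higher. Leaving out 1 library or all libraries of 1 number, the latter chosen after seeing the data, gave 225 to 4827 calls, 173 to 3922 higher and 52 to 1469 lower. Against the other lines, 5985 calls became 3028 with limma voom and a weight per line, chosen after seeing the data, and 1907 to 7478 with 1 library left out. Other scalings, limma voom and the 6 compared libraries alone gave 2793 to 3649 calls. Every region called here that was also tested under these HCC827 alternatives kept its direction, and of the 28 regions named for size 5 passed without the block.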

Other observations

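In 286 bins of 10 Mb with at least 50 tested regions, the median log2 change had an SD of 0.131 between bins. The lowest bin was on chromosome X from 150 to 160 Mb, at -0.513 over 353 regions, and the highest was on X from 20 to 30 Mb, at 0.259 over 112 regions. Bins at least 0.3 from 0 numbered 14 and held 159 of the called regions.

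Chromosomes differed in the balance of calls. On chromosome 14, 99 of 3216 tested regions rose (3.08%) and 30 fell (0.933%), and on chromosome 4, 116 of 2850 rose (4.07%) and 39 fell (1.37%). On X, 23 of 1833 rose (1.25%) and 69 fell (3.76%). Of all tested regions 2.16% rose and 1.72% fell. The median log2 changes on chromosomes 14, 4 and X were 0.0199, -0.0381 and -0.25, beside -0.123 over all tested regions, and no test of these was run.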
